A study of Homo sapiens with 6 samples.

Results

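The 10 genes examined here encode ligands of the epidermal growth factor (EGF) family, ErbB receptors other than ERBB2, and an inhibitor of these receptors. They were the protein-coding rows named EGFR, ERBB3, ERBB4, AREG, EREG, HBEGF, TGFA, BTC, EPGN and ERRFI1, out of 58735 genes in the deposited table, of which 19951 were protein-coding. RNA sequencing was available for 6 libraries of NCI-N87, an established human gastric cancer cell line, 3 labelled shNC and 3 labelled shScamp1. shNC cells are the controls, named shCtrl in the study's methods, and carried the empty lentiviral vector. shScamp1 cells carried an shRNA against SCAMP1, a membrane protein of recycling vesicles that EGFR is known to phosphorylate, and the study's methods name the hairpin shS1#1 for the sequencing. Cells of both groups had been in contact with lentivirus and polybrene for 24 h, were selected as stable populations with 2 μg/ml puromycin, and were harvested before full confluence. No other hairpin was analysed here, and the labels call the libraries biological replicates without saying whether they came from separate infections, so the p-values measure the spread between these libraries only.

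The ErbB family consists of the receptor tyrosine kinases EGFR, ERBB2, ERBB3 and ERBB4, which dimerize on the cell surface when a ligand of the EGF family binds. The ligands are made as membrane-anchored precursors and are released by metalloproteases, so that a cell can stimulate itself and its neighbors. AREG, EREG, HBEGF, TGFA, BTC and EPGN bind EGFR, and some of them also bind ERBB4, whereas ERBB3 binds neuregulins, has very weak kinase activity of its own and signals with a partner such as ERBB2. ERRFI1 (also called MIG6) is a cytoplasmic protein that binds the kinase domain of active EGFR and ERBB2 and is itself induced by receptor signaling. NCI-N87 cells are known for amplification of ERBB2, and stimulation of EGFR is a known route to proliferation in gastric epithelium.

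Expression is given as FPKM (fragments per kilobase of gene length, scaled to sequencing depth), which allows levels of different genes to be compared per length. Depth was close between the groups, with 15064905 to 15988700 reads on genes in shNC libraries and 14311769 to 14667628 in shScamp1 libraries. SCAMP1 itself was at 12.1 ± 0.562 FPKM in shNC and 1.69 ± 0.311 FPKM in shScamp1 cells (SD, n = 3 each). Of 5 epithelial markers, all expressed, the keratins KRT8, KRT18 and KRT19 were at 1.96, 2.28 and 1.69 times their shNC means in shScamp1 cells and CDH1 at 1.37 times, whereas EPCAM was at 153 ± 3.35 FPKM in shNC and 148 ± 6.45 FPKM in shScamp1 cells (SD, n = 3 each; limma, adjusted p = 0.670). Their summed level, mostly keratins, was 4221 to 4434 FPKM in shNC and 7727 to 8494 FPKM in shScamp1 libraries. The summed level of 6 markers of other cell types was between 0.634 and 0.980 FPKM in all libraries, with COL1A2 and DCN at 0. The part of the keratin and CDH1 differences in the results was not tested. In such bulk RNA, fewer cells of a kind and less RNA per cell cannot be told apart. shScamp1 replicate 2 stood apart. Its mitochondrial share of reads was 9.21%, against 6.09% to 6.78% in the other libraries. The mean chi-square of the read numbers per gene, which is close to 1 for counting noise, was 1.89 to 2.42 between shNC libraries and 2.88 between shScamp1 replicates 1 and 3, but 38.6 and 30.3 between replicate 2 and those libraries. Without this library 27.8% of all genes tested passed an adjusted p of 0.05, against 14.0% with all libraries. When 1 of the others was left out, 5.19% to 11.7% passed, so counts from these fits are set beside these shares.

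Of the 10 genes, 8 averaged 0.5 FPKM or more over the libraries and were tested with limma on log2(FPKM + 0.1) together with 15556 genes in all; each of the 8 was above 0.5 FPKM in both groups. EREG, TGFA, ERRFI1, HBEGF and ERBB3 were higher in shScamp1 cells at a Benjamini-Hochberg adjusted p under 0.05, which is 5 of 8 genes beside 8.82% of all genes tested that were higher. None of the 8 was lower by limma, beside 5.17% of all genes, and 0 were lower at an unadjusted p under 0.05 or with voom. In either direction 14.0% of all genes passed. Without shScamp1 replicate 2, 7 of the 8 genes passed, beside 27.8% of all genes. EGFR was among these 7 and was lower, with a log2 fold change of -0.27 (adjusted p = 0.0225 by limma). When 1 of the other libraries was left out, 3 or 4 of the 8 passed, beside 5.19% to 11.7% of all genes. EREG and TGFA also exceeded an absolute log2 fold change of 1, the second threshold of the study, beside 3.16% of all genes. The median log2 fold change was 0.69 over the 8 genes and -0.02 over all genes tested. FPKM did not overlap between the groups for 6 of the 8 genes, beside 41.4% of all genes, and for each of these 6 the exact two-sided permutation test gave p = 0.1, the smallest p that 3 libraries against 3 allow. The genes were chosen with earlier results of these data known, so no test over the group was made.

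**Figure D1:**
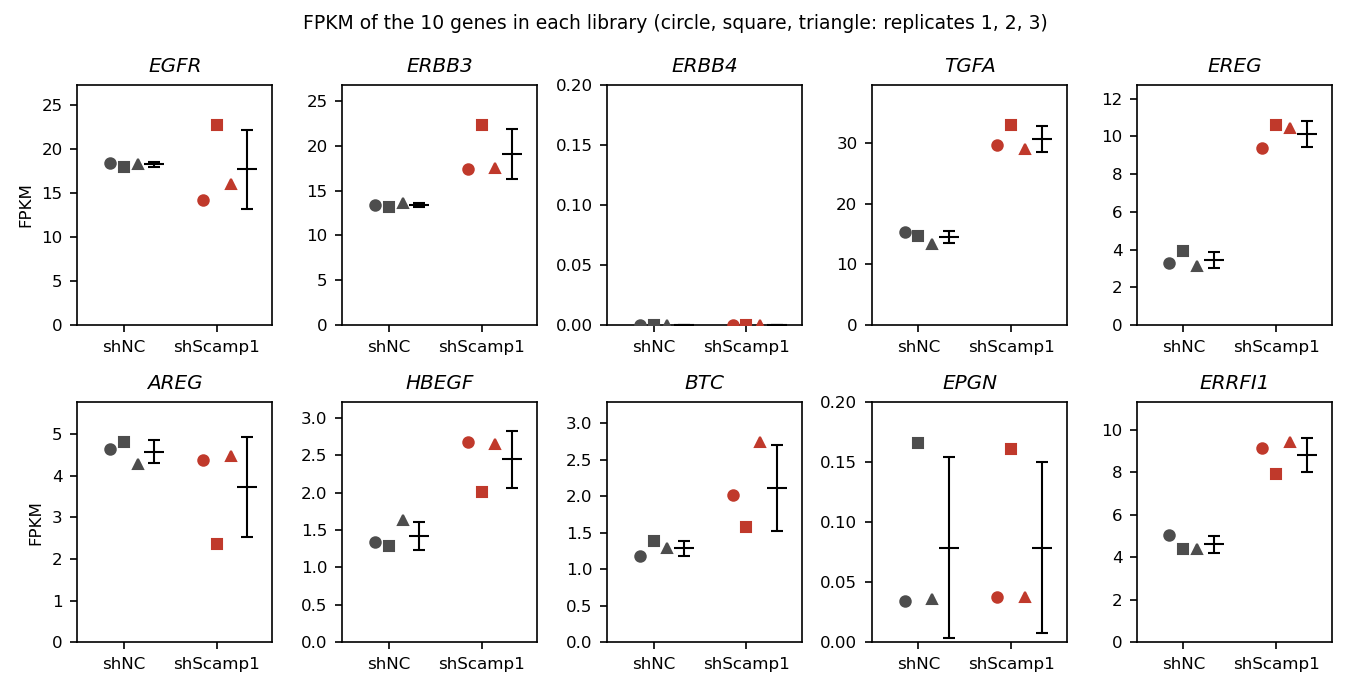
FPKM (vertical axis, starting at 0, with its own scale in each panel) of the 10 genes in the 3 shNC libraries (grey) and the 3 shScamp1 libraries (red), with circle, square and triangle for replicates 1, 2 and 3 and a bar for mean ± SD. The shScamp1 values of TGFA, EREG, HBEGF, BTC, ERRFI1 and ERBB3 all lie above the shNC values, and the square of shScamp1 replicate 2 is the highest EGFR value (22.8 FPKM) and the lowest AREG value (2.35 FPKM).

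In shNC cells the order of levels per length was EGFR, TGFA, ERBB3, ERRFI1, AREG, EREG, HBEGF, BTC and EPGN, with ERBB4 at 0. The ranges of TGFA and ERBB3, of ERRFI1 and AREG, and of HBEGF and BTC overlapped over the 3 libraries, so the order within each of these pairs is not set beyond the spread. In shScamp1 cells TGFA came first and EREG had moved ahead of AREG. There, ERBB3 overlapped EGFR, EREG overlapped ERRFI1, and the ranges of AREG, HBEGF and BTC ran into each other.

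TGFA, which encodes transforming growth factor alpha, a high-affinity EGFR ligand, was the most abundant ligand transcript in all 6 libraries. It was at 15.3, 14.7 and 13.4 FPKM in shNC replicates 1 to 3 and at 29.7, 33.0 and 29.04 FPKM in shScamp1 replicates 1 to 3, from 1028 to 2243 reads per library. All shScamp1 libraries were thus well above all shNC libraries. The mean rose from 14.5 ± 0.960 to 30.6 ± 2.13 FPKM (SD, n = 3 each), a ratio of 2.11, and limma gave a log2 fold change of 1.07 ± 0.08 (SE) with an adjusted p of 0.000984. TGFA (ENSG00000163235) lies on the reverse strand of chromosome 2 from 70447280 to 70554193 (hg38, as are all coordinates here).

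EREG, the gene of epiregulin, a low-affinity ligand of EGFR and ERBB4 with prolonged signaling, had the highest log2 fold change of the 8 genes. Its levels were 3.28, 3.90 and 3.11 FPKM in shNC and 9.35, 10.6 and 10.4 FPKM in shScamp1 libraries, from 275 to 874 reads. All shScamp1 values were far above all shNC values. The mean rose from 3.43 ± 0.418 to 10.1 ± 0.687 FPKM (SD, n = 3 each), a ratio of 2.95, and limma gave a log2 fold change of 1.54 ± 0.11 (SE) with an adjusted p of 0.000696. Among 6576 other protein-coding genes that averaged 5 FPKM or more, the 3 whose log2 values over the 6 libraries, centred on shNC, were nearest to those of EREG were HSPB8 (Euclidean distance 0.197), PADI3 (0.215) and SCEL (0.232).

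HBEGF (chromosome 5, 140332843 to 140346631, reverse strand) encodes heparin-binding EGF-like growth factor, which binds EGFR and ERBB4 and is the cell surface receptor for diphtheria toxin. It was at 1.34, 1.29 and 1.63 FPKM in shNC and 2.68, 2.01 and 2.65 FPKM in shScamp1 libraries, from 64 to 118 reads. The groups did not overlap, although shScamp1 replicate 2 was nearer to the shNC libraries than the other two. By limma, the log2 fold change was 0.74 ± 0.16 (SE; adjusted p = 0.0290) with all 6 libraries and 0.87 (adjusted p = 0.00712) without shScamp1 replicate 2. When instead any of the other 5 libraries was left out, HBEGF did not pass, with adjusted p-values of 0.0602 to 0.115.

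BTC, the gene of betacellulin, another ligand of both EGFR and ERBB4, was at 1.19, 1.39 and 1.29 FPKM in shNC and 2.02, 1.58 and 2.74 FPKM in shScamp1 libraries, from 53 to 113 reads. Every shScamp1 value was above every shNC value, but the spread among shScamp1 libraries was wide. Its log2 fold change of 0.64 ± 0.20 (SE; limma, adjusted p = 0.0880) did not pass the threshold. Its 95% interval ran from 0.15 to 1.14, and without shScamp1 replicate 2 the log2 fold change was 0.83 (adjusted p = 0.0167). BTC also passed when limma was run on protein-coding genes only (adjusted p = 0.0496).

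AREG encodes amphiregulin, an EGFR ligand with an N-terminal heparin-binding part and a common autocrine factor of epithelial tumors. Its groups overlapped, unlike those of TGFA, EREG, HBEGF and BTC. Its levels were 4.63, 4.81 and 4.28 FPKM in shNC and 4.36, 2.35 and 4.48 FPKM in shScamp1 libraries, from 53 to 132 reads. shScamp1 replicates 1 and 3 lay within the shNC range, and only replicate 2 lay below it. The log2 fold change was -0.34 (95% interval -0.93 to 0.25, adjusted p = 0.392 by limma) and -0.05 without shScamp1 replicate 2 (adjusted p = 0.669). Among shNC libraries the coefficient of variation of AREG was 5.85%, under the 9.10% that counting alone gives at this depth, and among shScamp1 libraries it was 32.1%, against 10.6% from counting.

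EPGN, the gene of epigen, a low-affinity EGFR ligand, was at 0.0348, 0.165 and 0.0357 FPKM in shNC and 0.0377, 0.161 and 0.0377 FPKM in shScamp1 libraries. These values rest on 1 to 5 reads per library, and a difference was not detectable at this depth.

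**Figure D2:**
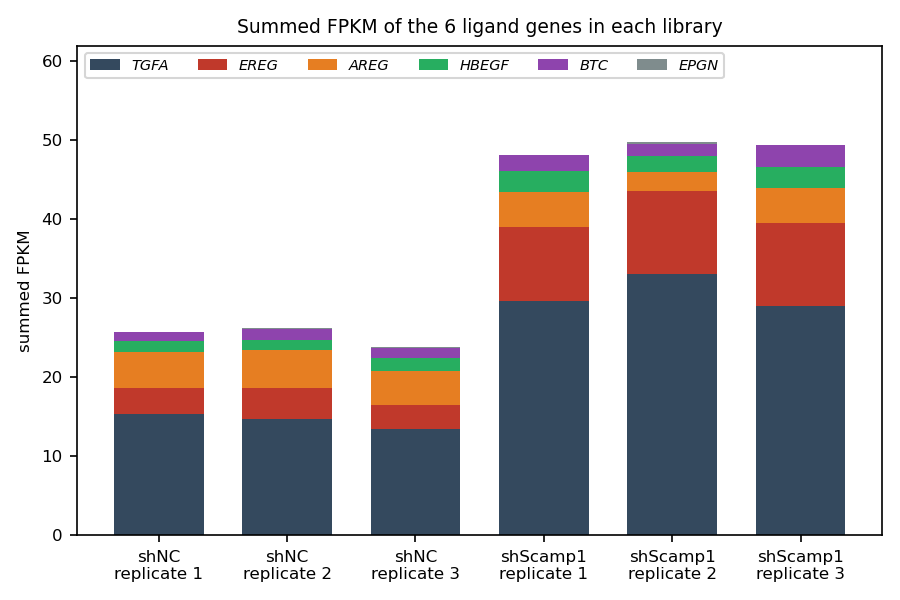
Summed FPKM of the 6 ligand genes (vertical axis) in each of the 6 libraries, with the part of each ligand in color. The sum is 23.8 to 26.2 FPKM in shNC and 48.1 to 49.7 FPKM in shScamp1 libraries, and TGFA is the largest part of every bar.

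Added over the 6 ligands, the level was 25.8, 26.2 and 23.8 FPKM in shNC and 48.1, 49.7 and 49.4 FPKM in shScamp1 libraries, a ratio of means of 1.94. The sum of shScamp1 replicate 2 lay with that of the other shScamp1 libraries, although single ligands in it did not. TGFA made up 57.3% ± 1.83 of the sum in shNC and 62.3% ± 3.83 in shScamp1 cells (SD, n = 3 each), with overlapping groups. The share of EREG was 13.6% ± 1.15 in shNC and 20.6% ± 1.05 (SD) in shScamp1 cells, whereas that of AREG was 18.1% ± 0.182 and 7.62% ± 2.51. The ratio of EREG to AREG was 0.708, 0.812 and 0.727 in shNC and 2.14, 4.52 and 2.33 in shScamp1 libraries, so that the order of these ligands was opposite in the groups in every library. The other EGFR ligand, EGF, was under the expression filter, with 0.103, 0.167 and 0.137 FPKM in shNC and 0.402, 0.382 and 0.413 FPKM in shScamp1 libraries, from 10 to 37 reads. EGF did not overlap between the groups, but when genes were tested without a filter its adjusted p was 0.0999 by limma.

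EPGN, EREG, AREG and BTC lie close together on chromosome 4, within 486214 bases, a feature on which they were not chosen. EPGN (74308473 to 74315307), EREG (74365143 to 74388751) and AREG (74445134 to 74455009) point forward, and BTC (74744759 to 74794686) points backward. EREG is separated from EPGN by 49835 bases with no listed gene between them and from AREG by 56382 bases with 1 gene between them. AREG and BTC are 289749 bases apart, also with 1 gene between them. The middle gene of the 3 on the forward strand was thus 2.95 times its shNC mean, beside a gene with almost no reads and a gene whose groups overlapped. Of 47 other genes that start within 1 Mb of the cluster, 12 were tested, and 2 were higher and 1 was lower, beside 14.0% of all genes in either direction, with a median log2 fold change of -0.12. RASSF6, which encodes a Ras-association domain protein, was at 2.52 ± 0.0742 FPKM in shNC and rose to 6.50 ± 0.583 FPKM in shScamp1 cells (SD over 3 libraries), which limma gave as a log2 fold change of 1.33 with an adjusted p of 0.000660. CXCL8, the gene of interleukin 8, had a log2 fold change of 1.49 (adjusted p = 0.00111 by limma), and PARM1, a mucin-like membrane protein, had -0.46 (adjusted p = 0.00458). Without shScamp1 replicate 2, 7 of the 12 passed, beside 27.8% of all genes in that fit.

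EREG and TGFA changed most, and AREG, near EREG, did not pass the test. The 100 bases before the RefSeq start sites of EPGN, EREG, AREG, BTC and TGFA are therefore shown. They are written 5′ to 3′ on the strand of each gene from GRCh38.p14, at chr4:74308370-74308469 for EPGN, chr4:74365045-74365144 for EREG, chr4:74445036-74445135 for AREG, chr4:74794524-74794623 for BTC (reverse) and chr2:70553827-70553926 for TGFA (reverse). Capitals mark TATAAA in the direction of the gene, the palindrome TGACGTCA, and GGGCGG or its reverse complement CCGCCC.
EPGN: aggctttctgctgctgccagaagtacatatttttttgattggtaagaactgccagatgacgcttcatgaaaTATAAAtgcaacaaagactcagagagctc
EREG: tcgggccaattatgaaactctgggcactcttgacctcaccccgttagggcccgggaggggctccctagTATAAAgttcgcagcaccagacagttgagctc
AREG: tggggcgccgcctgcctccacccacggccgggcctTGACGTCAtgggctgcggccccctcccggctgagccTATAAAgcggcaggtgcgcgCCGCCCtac
BTC: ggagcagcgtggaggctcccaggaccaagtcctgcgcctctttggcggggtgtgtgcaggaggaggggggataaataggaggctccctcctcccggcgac
TGFA: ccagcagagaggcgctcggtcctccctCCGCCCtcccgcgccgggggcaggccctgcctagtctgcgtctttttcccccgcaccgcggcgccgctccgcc

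EPGN, EREG and AREG all held TATAAA, the core of a TATA box, at 29, 32 and 29 bases before the start. A match with its first base 20 to 40 bases before the start was found in 2.30% of 35116 RefSeq windows of 300 bases (250 before the start and 50 from it on), and a match anywhere in the window in 7.33%. AREG also held TGACGTCA, the full cAMP response element, at 65 bases before the start, a motif found in 1.85% of windows. In the 300-base windows EPGN and EREG had 0 matches to GGGCGG on either strand, AREG and BTC 1 each, TGFA 4 and HBEGF 5, beside 45.0% of windows with a match. The window of EPGN was 37.7% G and C, that of EREG 57.7%, that of AREG 66.3% and that of TGFA 75.3%. The windows of TGFA and BTC held no TATAAA. Only this exact sequence was searched, so other forms of a TATA box were not counted. Any part of these motifs in the expression differences was not tested. Windows were found for 9 of the 10 genes, not for ERBB3; the RefSeq start lay 367 bases from the start of the deposited gene for TGFA and 163 for BTC. These matches are letters in the window and not measured binding.

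ERBB3 (chromosome 12, 56076799 to 56103505, forward strand) encodes the neuregulin receptor that couples to PI3K through its docking tyrosines. It was at 13.4, 13.1 and 13.6 FPKM in shNC and 17.4, 22.3 and 17.5 FPKM in shScamp1 libraries, from 1894 to 2765 reads. All shScamp1 libraries were higher, and replicate 2 was the highest of them. The mean rose from 13.4 ± 0.219 to 19.1 ± 2.84 FPKM (SD, n = 3 each), a ratio of 1.43, and limma gave a log2 fold change of 0.50 ± 0.11 (SE) with an adjusted p of 0.0318. Without shScamp1 replicate 2 the log2 fold change was smaller, 0.38, and its adjusted p was 0.00187. ERBB3 did not pass without shNC replicate 1, 2 or 3 or without shScamp1 replicate 3, with adjusted p-values of 0.0643 to 0.122. AC034102.2, a protein-coding gene on the same strand whose exons share bases with ERBB3, held 0 reads. The settings of the counting were not given, so how reads in the shared bases were assigned is not known.

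EGFR (chromosome 7, 55019021 to 55211628, forward strand), the receptor of all 6 ligands, was at 18.5, 18.0 and 18.3 FPKM in shNC and 14.3, 22.8 and 16.1 FPKM in shScamp1 libraries, from 2611 to 3911 reads. shScamp1 replicates 1 and 3 were below all shNC libraries, and replicate 2 was above all of them. The log2 fold change was -0.07 (95% interval -0.48 to 0.34, adjusted p = 0.799 by limma; exact two-sided permutation test, p = 0.7). Without shScamp1 replicate 2 it was -0.27 (adjusted p = 0.0225), and without shScamp1 replicate 1 it was 0.066, so both the direction and the call for EGFR depended on single libraries. The coefficient of variation was 1.32% among shNC libraries, where counting alone gives 1.65%, and 25.4% among shScamp1 libraries, where counting gives 1.78%. EGFR-AS1, an antisense gene whose exons share bases with EGFR, held only 11 to 22 reads.

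ERBB4 (chromosome 2, 211375717 to 212538841, reverse strand), a receptor for neuregulins, betacellulin and heparin-binding EGF-like growth factor, had 0 reads in all 6 libraries; 3 reads, the limit that a count of 0 allows, correspond to 0.0138 to 0.0168 FPKM. ERBB2, the partner with no known ligand, was at 1235 ± 33.6 FPKM in shNC and 1382 ± 115 FPKM in shScamp1 cells (SD, n = 3 each; log2 fold change 0.16, 95% interval -0.09 to 0.41, adjusted p = 0.336 by limma). Among the neuregulins, NRG4, a ligand of ERBB4, was at 1.83 ± 0.235 and 2.49 ± 0.216 FPKM (log2 fold change 0.43, adjusted p = 0.0787 by limma), NRG1 and NRG2 were at or below 0.215 FPKM in all libraries, and NRG3 was at 0. Of the 6 genes in the list of other ligands and ERBB2, 2 were tested. With all genes tested, 0 passed by limma or voom, and 1 had an unadjusted p under 0.05. NRG4 passed when limma was run on protein-coding genes only (adjusted p = 0.0468). FPKM did not overlap between the groups for NRG4 and ERBB2, beside 41.4% of all genes. NRG1, under the filter with 1 to 20 reads per library, did not overlap either, with the shScamp1 values above the shNC values. When genes were tested without a filter, the adjusted p of NRG1 was 0.270 by limma.

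**Figure D3:**
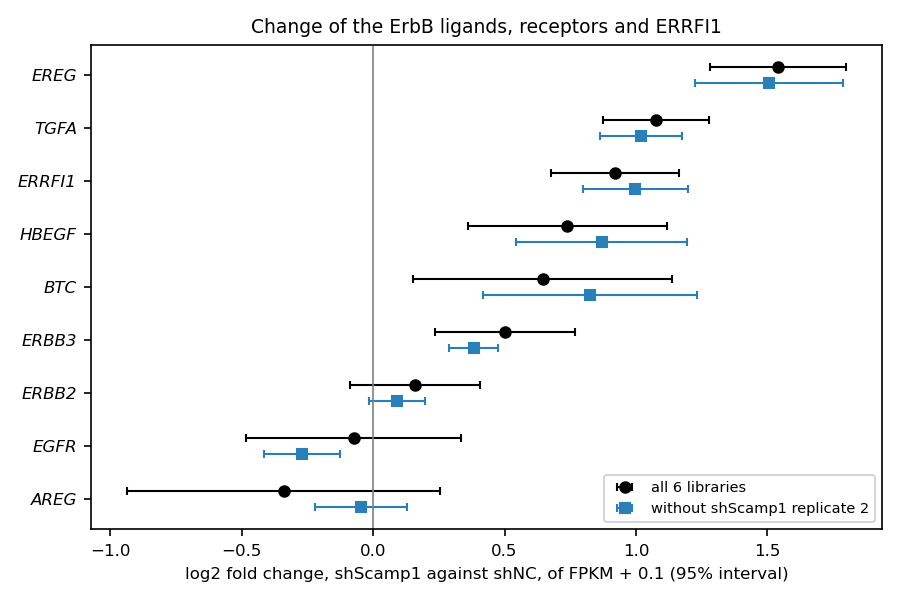
Log2 fold change of FPKM + 0.1 in shScamp1 against shNC cells (horizontal axis, points) with 95% intervals (bars) from limma, for the 8 genes tested and ERBB2, with all 6 libraries (black circles) and without shScamp1 replicate 2 (blue squares). EREG (1.54) and TGFA (1.07) lie farthest to the right with either set, whereas EGFR moves from -0.07 to -0.27 and its interval leaves 0.

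EGFR and ERBB3 were both highest in replicate 2 among shScamp1 libraries, and their ratio varied less than EGFR did. The ratio of EGFR to ERBB3 was 1.39, 1.37 and 1.35 in shNC and 0.821, 1.02 and 0.919 in shScamp1 libraries, so EGFR exceeded ERBB3 clearly in every shNC library and was level with it or below it in every shScamp1 library. The mean ratio was 1.37 ± 0.0168 and 0.920 ± 0.0999 (SD, n = 3 each), and the shScamp1 mean was 0.635 times the shNC mean when replicate 2 was left out. The summed ligands per EGFR were 1.39, 1.46 and 1.30 in shNC and 3.37, 2.18 and 3.08 in shScamp1 libraries. Here replicate 2 was the lowest of its group but still above all shNC libraries. These are ratios of transcript levels and say nothing of protein at the cell surface.

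**Figure D4:**
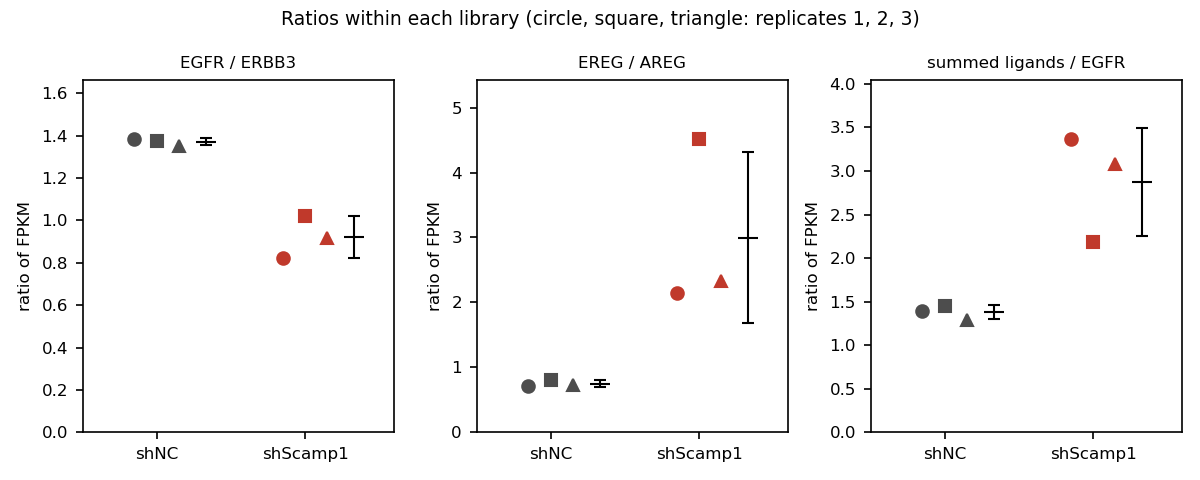
Ratios of FPKM within each library (vertical axes, starting at 0) for EGFR over ERBB3, EREG over AREG and the 6 summed ligands over EGFR, in shNC (grey) and shScamp1 (red) libraries, with mean ± SD as bars and circle, square and triangle for replicates 1, 2 and 3. The groups do not overlap in any panel, and shScamp1 replicate 2 (square) is the highest for EREG over AREG (4.52) and the lowest of its group for ligands over EGFR (2.18).

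ERRFI1 (chromosome 1, 8004404 to 8026308, reverse strand), the feedback inhibitor, was at 5.06, 4.40 and 4.38 FPKM in shNC and 9.14, 7.91 and 9.44 FPKM in shScamp1 libraries, from 283 to 578 reads. Every shScamp1 library was higher, and replicate 2 was again the nearest to shNC. The mean rose from 4.61 ± 0.389 to 8.83 ± 0.813 FPKM (SD, n = 3 each), a ratio of 1.91, and limma gave a log2 fold change of 0.92 ± 0.10 (SE) with an adjusted p of 0.00295. AL034417.4, an antisense gene that shares bases with its exons, held 3 to 5 reads.

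The other genes of the pathway were examined in lists by role. Of 109 genes listed, 100 were tested; 17 were higher and 3 lower, which is 20 of 100 beside 14.0% of all genes in either direction, with a median log2 fold change of 0.14. The count was 46 without shScamp1 replicate 2, where 27.8% of all genes passed. When 1 of the other libraries was left out it was between 6 and 13, where 5.19% to 11.7% of all genes passed. The count thus moved with the count over all genes. Without shScamp1 replicate 2, 5 of 8 genes tested for ligand shedding passed, 11 of 27 adaptors and effectors and 7 of 23 negative regulators. In the same fit, 10 of 21 genes for endocytosis and sorting passed and 13 of 19 transcripts induced by growth factors. These counts are of either direction, beside 27.8% of all genes. When 1 of the shNC libraries was left out, whichever it was, the counts in the same order were 1, 0, 3, 0 and 2. In these fits 5.19% to 5.52% of all genes passed.

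For shedding of the ligands from the membrane, 2 of 8 genes tested were higher and 0 lower (median log2 fold change 0.16). Over all genes tested, 8.82% were higher and 5.17% lower. ADAM9, a membrane metalloprotease, was at 14.0 ± 0.313 FPKM in shNC and rose to 25.2 ± 0.526 FPKM in shScamp1 cells (SD over 3 libraries). By limma its log2 fold change was 0.84 (adjusted p = 0.000696), and it passed in all 6 fits that left out a library. RHBDL2, a rhomboid protease that can cleave EGF-family precursors, had a log2 fold change of 0.45 (adjusted p = 0.0480) and passed in 1 of these 6 fits. Among adaptors and effectors, 2 of 27 genes were higher and 1 was lower (median 0.11), a share under the 14.0% of all genes. The docking protein GAB1 had a log2 fold change of 0.59 (adjusted p = 0.0322 by limma), the kinase SRC 0.33 (adjusted p = 0.0408) and the transcription factor STAT5B -0.37 (adjusted p = 0.0208).

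Among negative regulators, 6 of 23 genes were higher and 1 was lower (median 0.09), beside 8.82% and 5.17% of all genes. The 3 negative regulators with the smallest p were phosphatases of MAP kinases. DUSP4 was at 0.850 ± 0.0329 FPKM in shNC and rose to 4.26 ± 0.697 FPKM in shScamp1 cells (SD over 3 libraries), which limma gave as a log2 fold change of 2.19 with an adjusted p of 0.000566. DUSP5 had a log2 fold change of 0.91 (adjusted p = 0.00174) and DUSP6 0.58 (adjusted p = 0.00582), and all 3 passed in all 6 fits that left out a library. SPRY1, an inhibitor of receptor signaling to Ras, had -0.73 (adjusted p = 0.0422) and passed in 1 of the 6. For receptor endocytosis and sorting, 4 of 21 genes were higher and 0 lower (median 0.16), beside 8.82% and 5.17% of all genes. Log2 fold changes were 0.41 for the CBL-binding adaptor SH3KBP1 (adjusted p = 0.0103 by limma), 0.33 for the ESCRT subunit TSG101 (adjusted p = 0.0183) and 0.45 for the early endosome GTPase RAB5A (adjusted p = 0.0204). Among transcripts induced by growth factors, 3 of 19 were higher and 1 was lower (median 0.13), beside 8.82% and 5.17% of all genes. KLF6, a zinc finger factor, rose from 6.88 ± 0.340 to 12.9 ± 0.489 FPKM (log2 fold change 0.90, adjusted p = 0.000997 by limma), and PHLDA1 rose from 45.0 ± 1.38 to 76.8 ± 2.26 FPKM (log2 fold change 0.77, adjusted p = 0.00108; SD, n = 3 each). ETV4, an ETS factor, had 0.30 (adjusted p = 0.0300), and the immediate-early factor EGR1 fell from 48.8 ± 2.58 to 36.7 ± 1.25 FPKM (log2 fold change -0.41, adjusted p = 0.0132). The direction within this list was thus not uniform. Of the genes named from these lists, ADAM9, DUSP4, DUSP5, DUSP6, KLF6 and PHLDA1 passed in all 6 fits that left out a library, and each of the others in 1 to 3 of them.

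**Figure D5:**
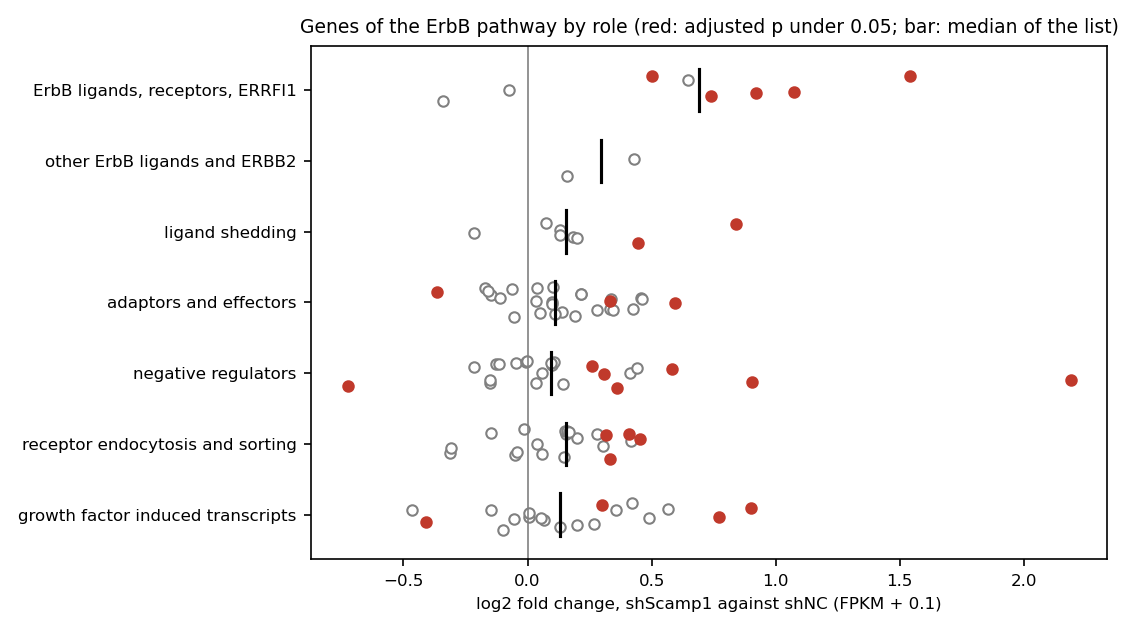
Log2 fold change of FPKM + 0.1 in shScamp1 against shNC cells (horizontal axis) for each gene tested, by role in the ErbB pathway; red points passed an adjusted p of 0.05 by limma, open points did not, and the black bar is the median of the list. The median is 0.69 for the ErbB ligands, receptors and ERRFI1 and between 0.09 and 0.29 for the other lists; the point farthest to the right is DUSP4 at 2.19.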

How the data were processed

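RNA of 3 shNC and 3 shScamp1 samples of NCI-N87 cells was sequenced. The authors deposited a single table of FPKM for every gene, beside gene length and position; the submitters' processing notes name HISAT2 2.0.5, featureCounts 1.5.0-p3, DESeq2 1.20.0 and hg38, without settings or strand. All 58735 gene coordinates equalled GENCODE 29. Multiplied by gene length, 100% of the values of up to 5000 reads were whole multiples (within 0.02) of what 1 read is worth in that library, which gave reads per gene. The steps already contained a scaling between libraries close to median-of-ratios factors (0.914 to 1.11), so no further scaling was applied.

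Log2(FPKM + 0.1) was fitted with limma 3.58.1 in R 4.3.3 (lmFit, eBayes with a mean-variance trend) for the 15556 genes averaging 0.5 FPKM or more, with Benjamini-Hochberg adjustment over all of them. Fold changes on this scale understate those of low genes. Calls follow an adjusted p under 0.05, and, where said, an absolute log2 fold change above 1. Tables and motif matches were computed with pandas 2.3.3 and numpy 2.4.6 (Python 3.11.15). The labels do not say whether equal replicate numbers belong together, and no block was used in the main fit. Alternatives were other pseudocounts and filters, libraries centred on their median, no trend, protein-coding genes only, voom on the recovered reads, a replicate block and each library left out.

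The genes, lists and tests were chosen with earlier results of these data known. Genes named are the 10 members, SCAMP1, ERBB2, EGF and the neuregulins, up to 3 genes with the smallest p per direction in each other list and in the chromosomal neighborhood, and the 3 genes nearest to EREG in pattern. The other assays of the study were not analysed here.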

Additional observations from a re-analysis of the deposited data

How the results depend on the processing

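EREG, TGFA, ERRFI1 and SCAMP1 kept their direction and an adjusted p under 0.05 in all 15 alternatives, with log2 fold changes of 1.33 to 1.63 for EREG, 1.02 to 1.12 for TGFA and 0.81 to 1.00 for ERRFI1. ERBB3 and HBEGF kept their direction and passed in 8 of 15 each, with an adjusted p of at most 0.122 and 0.115. BTC passed in 2 of 15, AREG in 0 and EGFR in 1; the cause was not tested. Leaving out single libraries gave EGFR log2 fold changes of -0.27 (without shScamp1 replicate 2) to 0.066 (without shScamp1 replicate 1). In the main fit, 5 of the 8 genes passed an adjusted p of 0.05. The number was 3 with no low-value filter or with a replicate block, 4 with no mean-variance trend and 6 with protein-coding genes only. It was 3 to 7 on leaving out single libraries, and EGFR, then lower, was among the 7. EREG and TGFA passed both thresholds in every alternative. The correlation of deviations from the group means was -0.0351, 0.0325 and 0.0668 between equal replicate numbers and -0.0841 to 0.0537 between unequal ones. The numbers were not taken as pairs, although these values do not settle whether they are. With the replicate block, which leaves fewer residual degrees of freedom, 958 genes of 15556 passed instead of 2177, and 6 of the 100 genes of the pathway lists instead of 20. On leaving out single libraries, these counts were 808 to 4330 and 6 to 46, highest without shScamp1 replicate 2, and 3 to 7 genes around the chromosome 4 cluster passed. With a pseudocount of 1, 248 genes instead of 492 passed both thresholds. The share of higher genes among those past the adjusted p was 63.0%, 73.5% with the block, 52.7% without shScamp1 replicate 2 and up to 79.7% without an shNC library. The ratio of summed ligands between groups, left out library by library after seeing the data, was 1.89 to 1.98. Among shScamp1 libraries the coefficient of variation was 27.7% for BTC and 15.5% for HBEGF, where counting gives 10.8% and 9.71%. For EPGN and ERBB4 the reads were too few to show a difference.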
